A study of Paralichthys olivaceus with 22 samples.

Results

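The probes described here are those of a Japanese flounder (Paralichthys olivaceus) oligonucleotide array that carry the name of a single database entry in place of a contig name. Of 14481 non-control probes, 412 carried such a name, for 409 entries. A probe was taken as a member when its spot was well above background on all 22 arrays, which held for 211 probes of 208 entries. The contig probes that met the same requirement numbered 6568. The requirement asks for signal in every group, so a transcript that was above background after one treatment and at background after another could not be a member.

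A database entry of this kind is usually a sequence that a laboratory cloned from the species and submitted under its own number, whereas a contig is assembled from many overlapping reads of a library. The kidney of bony fishes is a blood-forming and immune organ as well as an excretory one, and holds developing and mature leukocytes. Edwardsiella tarda, a Gram-negative bacterium, and Streptococcus iniae, a Gram-positive one, both cause disease in farmed flounder. The files pair no entry with a gene name or a sequence, and 0 of the entry names matched a table of 30478 RefSeq genes of the species, so the members are named by entry and probe number and no function is given to them. The match was by name only, without sequences, so it does not show that the entries lack a RefSeq gene.

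Total RNA of kidney was labelled with Cy3 and hybridised, 1 sample to an array. The groups were fish given E. tarda FKC and sampled at 12 h (n = 4) or 6 h (n = 3), fish given S. iniae FKC and sampled at 12 h (n = 4) or 6 h (n = 3), and fish given PBS as the control and sampled at 12 h (n = 4) or 6 h (n = 4). FKC is the labels' term and they do not expand it, and they give no dose, strain, age or sex. They also do not say that the samples of a group came from separate fish, so the p-values reflect no more than the variation among these samples, and that may be technical. In bulk tissue, fewer cells of a type and less RNA per cell cannot be told apart, and marker genes of the tissue could not be checked without gene names.

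The arrays lay on 3 slides. All E. tarda and S. iniae arrays of 6 h shared 1 slide, all those of 12 h shared another, and all PBS arrays, of both times, shared the last one. Treatment against PBS and the slide therefore cannot be told apart, while E. tarda FKC against S. iniae FKC and PBS over time were each compared within a slide, although on different rows of it. Between 8084 and 10666 probes per array were well above background. The 6 spike-in control probes measured on all arrays differed between E. tarda FKC and PBS by -0.31 to -0.17 at 12 h and by -0.94 to 0.01 at 6 h on the log2 scale. Between S. iniae FKC and PBS they differed by -0.35 to -0.23 at 12 h and by -0.52 to 0.15 at 6 h. Within a slide, they differed between E. tarda FKC and S. iniae FKC by -0.03 to 0.09 at 12 h and by -0.42 to -0.15 at 6 h, a change with time of 0.20 to 0.46, and between PBS at 12 h and at 6 h by -0.25 to -0.09. The part of such shifts in small differences of the members was not tested.

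Values are log2 spot signals relative to the 75th percentile of the array, so that 0 is the signal at that percentile and 1 unit is a 2-fold difference. The signal of a probe also depends on its sequence, so levels of different probes are signal levels and not relative amounts of transcript. A probe was called when its adjusted p from limma, Benjamini-Hochberg adjusted over all 11066 tested probes, was under 0.05.

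In kidneys of PBS fish the members were mostly bright probes. Their mean over the 8 PBS arrays ranged from -2.46 to 8.61, with a median of 1.99 and quartiles of 0.41 and 4.82. The contig probes that met the same requirement had a median of 0.00 and quartiles of -1.17 and 1.49. The PBS mean was below 0 for 41 members, between 0 and 4 for 106, and at 4 or more, at least 16-fold above the 75th percentile, for 64, of which 23 were at 7 or more. In processed signal the PBS means ran from 64.8 to 134597 units with a median of 1495, and no member's spot was saturated on any array. On single arrays the median over the members was highest at 2.66 on S. iniae FKC 12 h replicate 2 and lowest at 1.84 on PBS 12 h replicate 2. At 12 h these array medians ran from 2.06 to 2.66 on treated arrays and from 1.84 to 2.05 on PBS arrays. At 6 h they ran from 1.93 to 2.42 on treated arrays and from 1.87 to 2.22 on PBS arrays. They are medians of levels and not of differences between groups.

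No member was called between PBS kidneys at 12 h and at 6 h (limma), while 0.428% of all probes well above background on every array and 0.994% of all tested probes were called. Of the probes well above background on every array, 0.177% were called higher and 0.251% lower at 12 h. At an unadjusted p under 0.05 there were 13 of the 211 members, a count that has no background, since the percentages above are for adjusted p. It is therefore not read as a difference between the times. With a trended and robust spread estimate limma also called 0. The smallest adjusted p among the members was 0.24. Entry probes at background on PBS arrays were left out by the requirement, so the absence of calls holds for the members only. The difference lay within 0.5 of 0 for 179 of the 211 members. It lay beyond 1 for 5 members, 1 higher and 4 lower at 12 h. The median difference over the members was 0.07. It was 0.03 over all probes well above background on every array and -0.02 over all tested probes. With scaling to the median the members gave 0.16.

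Across the 6 groups, 127 of the 211 members passed the moderated F-test of limma (60.2%), against 60.7% of all probes well above background on every array and 57.9% of all tested probes. The other 84 did not pass it. In 89 members none of the 4 comparisons with PBS gave a call, and 16 of these 89 passed the F-test. The counts of 89 and 16 were not made over all probes, so they have no background. By the F-test, the share of members with a difference somewhere among the groups was close to that of all probes well above background on every array. Those probes include the members and were not matched to them in brightness.

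E. tarda FKC at 12 h gave the largest number of called members. At 12 h 52 members rose and 51 fell against PBS, which is 48.8% of the members, against 38.4% of all probes well above background on every array and 35.9% of all tested probes. Rises made up 24.6% of the members, against 17.5% of all probes well above background on every array, and falls 24.2%, against 20.8%. In 91 of these 103 members, 43.1% of all members, the E. tarda and PBS arrays did not overlap, against 32.7% of all probes well above background on every array that were called without overlap. At 6 h 35 members rose and 29 fell, or 30.3%, against backgrounds of 31.1% and 28.1%. Rises were then 16.6% of the members and falls 13.7%, against 13.2% and 17.9% of all probes well above background on every array. The E. tarda and PBS arrays of 6 h did not overlap in 56 of these 64 members, 26.5% of all members, against a background of 26.7%. The median difference over the members was -0.12 at both times. Over all probes well above background on every array it was -0.10 at 12 h and -0.11 at 6 h. Over all tested probes it was -0.12 at 12 h and -0.01 at 6 h. These medians depend on the settings: at 12 h the members gave -0.0057 with scaling to the median and -0.19 without PBS replicate 2, and at 6 h -0.014 with quantile normalization and -0.034 with normexp correction added.

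The called members reached further upward than downward. At least 4-fold rises after E. tarda FKC numbered 22 at 12 h and 16 at 6 h, where 2.73% and 1.81% of all probes well above background on every array rose as much. At least 4-fold falls numbered 5 at 12 h, with a background of 1.06%, and 0 at 6 h, with a background of 0.295%. The largest rise was 6.86 and the largest fall -2.62, both at 12 h. A member that was dim in PBS kidneys could not fall far and stay well above background on every array. The requirement also left out probes that rose from background. Of the 201 entry probes left out, 11 were well above background on every E. tarda FKC array of 12 h and on no PBS array of 12 h (5.47%, against 1.9% of all 7702 probes left out). The other way round there were 2 (0.995%, against 0.688%). At 6 h these numbers were 11 (5.47%, against 3.12%) and 0 (against 0.338%). The part of this requirement in the difference between rises and falls was not tested.

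The calls at 12 h and 6 h had different treated and control arrays, although all PBS arrays lay on 1 slide. There were 30 members that rose at both times, which is 57.7% of the 52 that rose at 12 h and 85.7% of the 35 that rose at 6 h. There were 19 that fell at both times, 37.3% of the 51 at 12 h and 65.5% of the 29 at 6 h. Rises at both times were 14.2% of all members and falls at both times 9%, against 8.51% and 8.16% of all probes well above background on every array. Of these 6779 probes, 1189 rose at 12 h, 893 at 6 h and 577 at both times. Falls numbered 1412 at 12 h, 1213 at 6 h and 553 at both times. No member rose at one time and fell at the other. The 30 members that rose at both times had rises of 1.05 to 6.86 at 12 h with a median of 2.37, and of 0.86 to 6.54 at 6 h with a median of 2.21. The 19 that fell at both times had medians of -1.43 at 12 h and -1.01 at 6 h. A further 22 rose and 32 fell at 12 h without passing at 6 h, and 5 rose and 10 fell at 6 h without passing at 12 h. Opposite calls were not counted over all probes, so their absence among the members has no background. For calls at a single time, the counts over the 6779 probes give an upper limit only. They bound the probes called at one time without the same call at the other, and any opposite calls are among these.

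S. iniae FKC gave fewer calls against the same PBS arrays. At 12 h 24 members rose and 13 fell, 17.5% of the members, against 12.4% of all probes well above background on every array and 11.1% of all tested probes. Rises were 11.4% of the members, against 7.04% of all probes well above background on every array, and falls 6.16%, against 5.38%. With each array scaled to its median in place of its 75th percentile, 31 rose and 8 fell, counts for which no background at that setting is given. The rises ran from 0.64 to 5.13 with a median of 1.14, and the falls from -2.03 to -0.67 with a median of -0.92. In 34 of these 37 members, 16.1% of all members, the S. iniae and PBS arrays did not overlap, against a background of 10.7%. At least 4-fold rises numbered 7 at 12 h, with a background of 0.546%.

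At 6 h 6 members rose and 2 fell after S. iniae FKC, 3.79% of the members, against backgrounds of 1.39% and 1.59%. By direction these were 2.84% and 0.948% of the members, against 0.856% and 0.531% of all probes well above background on every array. All 6 rises were at least 4-fold, from 2.11 to 4.37, where the background for rises of that size was 0.31%. The S. iniae and PBS arrays did not overlap in any of these 8 members, where 1.34% of all probes well above background on every array were called without overlap. The count of 8 depends on the settings: it was 27 after normexp background correction with quantile normalization, 14 (13 higher and 1 lower) after quantile normalization alone, and 2 when the 2 groups were fitted alone. It was 3 without S. iniae FKC replicate 2 or replicate 3 and 13 without PBS replicate 2. The backgrounds above belong to the main fit, so the counts under these other settings have none.

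The comparisons of E. tarda FKC and of S. iniae FKC with PBS at one time share their PBS arrays, so their values are given side by side only. Of the 30 members that rose at both times after E. tarda FKC, 18 were called higher after S. iniae FKC at 12 h and 6 at 6 h, and their S. iniae differences had medians of 0.93 at 12 h and 0.71 at 6 h. Of the 19 that fell at both times, 5 were called lower and 1 was called higher after S. iniae FKC at 12 h. The same counts were not made over all probes that rose or fell at both times, so these have no background. The 22 members that rose at least 4-fold after E. tarda FKC at 12 h had S. iniae differences of -0.02 to 5.13 at that time, with a median of 1.55.

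Between the preparations themselves, within a slide, 58 members differed at 12 h (27.5%, against 20.3% of all probes well above background on every array and 18.8% of all tested probes). The E. tarda signal was the higher one in 31 members (14.7%, against 10% of all probes well above background on every array) and the lower one in 27 (12.8%, against 10.3%). At 6 h 31 members differed (14.7%, against 15.7% and 14%), 22 higher and 9 lower after E. tarda FKC (10.4% and 4.27% of the members, against 7.77% and 7.97% of all probes well above background on every array). After normexp correction and quantile normalization that split at 6 h was 23 higher and 23 lower. The 6 h count was 16 when the 2 groups were fitted alone, 16 without E. tarda FKC replicate 2 and 19 without S. iniae FKC replicate 3. No background is given for the counts under these other settings. There were 15 members higher after E. tarda FKC at both times, 48.4% of the 31 at 12 h and 68.2% of the 22 at 6 h, and 5 lower at both times, 18.5% of the 27 and 55.6% of the 9. These were 7.11% and 2.37% of all members, against 3.51% and 2.46% of all probes well above background on every array. Of these 6779 probes, 681 were higher after E. tarda FKC at 12 h, 527 at 6 h and 238 at both times. Lower ones numbered 696 at 12 h, 540 at 6 h and 167 at both times.

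The member with the largest rise was probe CUST_156_PI426483993, named for entry EF530037. Its signal after E. tarda FKC was 5.0, 3.98, 4.93 and 4.98 at 12 h and 4.04, 4.36 and 3.06 at 6 h. After S. iniae FKC it was -1.42, 0.68, 2.12 and -0.15 at 12 h and -1.69, -1.90 and -1.62 at 6 h, and in PBS kidneys it was -2.32, -1.69, -2.43 and -2.10 at 12 h and -1.69, -2.54, -2.45 and -0.96 at 6 h. All E. tarda arrays stood above all other arrays. The S. iniae arrays of 12 h were spread widely and all above the PBS arrays of 12 h, whereas those of 6 h lay among the PBS arrays of 6 h.

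With E. tarda FKC this member rose over PBS at both times. The rise was 6.86 with a standard error (SE) of 0.53 at 12 h, adjusted p = 9.5e-09 by limma, and 5.73 with an SE of 0.57 at 6 h, adjusted p = 7.9e-07 by limma. With S. iniae FKC the rise at 12 h was 2.44 (SE 0.53), at an adjusted p of 0.0056 by limma, and the difference of 0.17 (SE 0.57) at 6 h did not pass (adjusted p = 0.94 by limma). Between the preparations its excess after E. tarda FKC was 4.41 at 12 h and 5.55 at 6 h, both called. In PBS kidneys its mean was the fifth lowest among the members.

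The next largest rise was that of probe CUST_63_PI426483993, named for entry AY533022. After E. tarda FKC its signal was 8.08, 7.96, 7.95 and 8.10 at 12 h and 6.74, 7.56 and 6.67 at 6 h. The S. iniae FKC arrays gave 5.68, 6.75, 6.91 and 5.31 at 12 h and 2.36, 2.82 and 3.1 at 6 h, and in PBS kidneys it was 1.82, 2.52, 0.12 and 1.09 at 12 h and -0.10, 0.47, 0.91 and 0.51 at 6 h. At each time the 3 treatments formed separate ranges, with E. tarda FKC on top and PBS at the bottom.

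This member rose in all 4 comparisons with PBS. For E. tarda FKC the rise was 6.63 (SE 0.42) at 12 h, with an adjusted p of 8.9e-10 by limma, and 6.54 (SE 0.45) at 6 h, with an adjusted p of 7.0e-09 by limma. For S. iniae FKC it was 4.78 (SE 0.42) at 12 h, with an adjusted p of 1.1e-06 by limma, and 2.32 (SE 0.45) at 6 h, with an adjusted p of 0.013 by limma. The call at 6 h was lost without S. iniae FKC replicate 2 (limma adjusted p = 0.065) or replicate 3 (limma adjusted p = 0.072). Its excess after E. tarda FKC over S. iniae FKC was 1.86 at 12 h and 4.23 at 6 h. That excess differed between the times by -2.37 (SE 0.64, limma adjusted p = 0.044). That call was lost with scaling to the median (limma adjusted p = 0.057), with no filter on dim probes (limma adjusted p = 0.054) and without any 1 array (limma adjusted p = 0.051 to 0.12) other than E. tarda FKC 6 h replicate 1, S. iniae FKC 12 h replicate 1 or 4, PBS 6 h replicate 1 and PBS 12 h replicate 2 or 3, without which it was kept.

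The largest S. iniae difference belonged to a further member, singled out after its values were seen, that was likewise called higher in each comparison with PBS. The E. tarda FKC arrays gave 4.82, 6.18, 5.72 and 6.12 at 12 h and 5.47, 5.08 and 5.25 at 6 h. After S. iniae FKC its signal was 5.52, 6.19, 6.27 and 6.03 at 12 h and 5.69, 5.82 and 6.07 at 6 h. The PBS arrays gave 1.31, 1.16, 0.86 and 0.17 at 12 h and 0.50, 0.54, 1.56 and 3.35 at 6 h. The treated arrays thus lay together and above all PBS arrays. It rose by 5.13 (limma adjusted p = 1.3e-06) after S. iniae FKC at 12 h, and the E. tarda minus S. iniae difference was -0.30 (SE 0.46, limma adjusted p = 0.72) at that time, which was not called.

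The member with the largest fall was probe CUST_232_PI426483993, named for entry AB073785. After E. tarda FKC its signal was -2.35, -1.93, -1.61 and -1.85 at 12 h and -1.05, -1.59 and -0.78 at 6 h. After S. iniae FKC it was -0.43, -0.56, -0.42 and -0.70 at 12 h and -0.08, 0.56 and 0.20 at 6 h, and in PBS kidneys it was 0.56, 0.40, 0.84 and 0.94 at 12 h and 0.41, 0.76, 0.48 and 0.14 at 6 h. At 12 h the 3 treatments formed separate ranges with E. tarda FKC lowest, and at 6 h the S. iniae and PBS arrays overlapped.

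This member fell in 3 of the 4 comparisons with PBS. For E. tarda FKC the difference was -2.62 (SE 0.21) at 12 h, with an adjusted p of 1.2e-08 by limma, and -1.58 (SE 0.22) at 6 h, with an adjusted p of 3.6e-05 by limma. For S. iniae FKC it was -1.21 (SE 0.21) at 12 h, with an adjusted p of 0.00087 by limma. The S. iniae difference at 6 h was -0.22 (SE 0.22, limma adjusted p = 0.73) and was not called. Between the preparations, E. tarda minus S. iniae was -1.41 at 12 h and -1.37 at 6 h, both called.

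The next largest fall was that of probe CUST_159_PI426483993, named for entry FJ262992. Its signal after E. tarda FKC was -2.13, -1.55, -1.39 and -1.62 at 12 h and -0.81, -0.80 and -1.12 at 6 h. The S. iniae FKC arrays gave -0.51, -0.52, -0.32 and -0.63 at 12 h and 0.05, 0.62 and 0.56 at 6 h, and in PBS kidneys it was 0.77, 0.74, 1.04 and 1.04 at 12 h and 0.67, 0.96, 0.73 and 0.34 at 6 h. The order of the treatments was that of the largest faller.

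Its fall was called in the same 3 comparisons. The difference from PBS was -2.57 (SE 0.18, adjusted p = 2.9e-09 by limma) for E. tarda FKC at 12 h. The E. tarda difference at 6 h was -1.58 (SE 0.19, adjusted p = 8.3e-06 by limma). The S. iniae difference at 12 h was -1.40 (SE 0.18, adjusted p = 7.5e-05 by limma). The S. iniae difference of -0.27 at 6 h was not called (limma adjusted p = 0.59).

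The steadiest members, taken as those with the smallest range of group means among members that did not pass the F-test, were probes CUST_45_PI426483993, named for entry AB240549, and CUST_28_PI426483993, named for entry DQ825345. The AB240549 probe averaged 6.99 ± 0.24 and 7.12 ± 0.04 after E. tarda FKC at 12 h and 6 h (SD, n = 4 and 3), and 6.87 ± 0.10 and 6.97 ± 0.08 after S. iniae FKC (SD, n = 4 and 3). In PBS kidneys it averaged 7.10 ± 0.23 and 7.12 ± 0.06 at 12 h and 6 h (SD, n = 4 each). Its group means spanned 0.25.

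The DQ825345 probe averaged 2.50 ± 0.25 and 2.46 ± 0.51 after E. tarda FKC at 12 h and 6 h, 2.62 ± 0.12 and 2.59 ± 0.13 after S. iniae FKC, and 2.35 ± 0.20 and 2.42 ± 0.08 in PBS kidneys, with the same numbers of arrays. Its group means spanned 0.27. The F-test of limma gave adjusted p = 0.48 for the AB240549 probe and 0.73 for the DQ825345 probe. This steadiness depends on the normalization: after normexp correction and quantile normalization the ranges were 0.81 and 0.60 and both passed the F-test (limma adjusted p = 0.0016 and 0.023).

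The difference between the preparations changed with time in 13 members (6.16%, against 4.44% of all probes well above background on every array and 3.79% of all tested probes). It moved upward from 6 h to 12 h in 6 members (2.84%, against 2.51% of all probes well above background on every array), by 1.61 to 3.70. In these 6 the median excess after E. tarda FKC over S. iniae FKC was 2.20 at 12 h and -0.71 at 6 h, so that E. tarda FKC was on top in 6 of 6 at 12 h and in 1 of 6 at 6 h. The difference moved downward in 7 members (3.32%, against 1.93%), by -2.49 to -1.52, with medians of 1.35 at 12 h and 3.02 at 6 h. Both lists hold members with similar profiles. The AY533022 probe and its nearest member, both among the 7, differed by a root mean square of 0.12 over the arrays, each centred on its own mean. A pair among the 6 differed by 0.35. Whether such members read separate transcripts was not tested. All 13 members were selected by the change in these same excesses. The medians, and which preparation was on top at each time, therefore follow in part from that selection. The count was 22 when limma was fitted to the probes well above background on every array, 7 when only the compared groups were fitted, and between 4 and 15 when 1 array was left out. No background is given for these other fits.

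The member with the largest upward change, singled out after its values were seen, had signals of 2.71, 2.0, 1.74 and 2.33 after E. tarda FKC at 12 h, against -0.70, -1.40, 0.38 and -1.62 after S. iniae FKC. At 6 h it had 0.24, -0.65 and 0.89 after E. tarda FKC, against 0.34, 1.38 and 0.79 after S. iniae FKC. The preparations did not overlap at 12 h and overlapped at 6 h. The excess after E. tarda FKC was 3.03 (limma adjusted p = 0.00027) at 12 h, and the difference of -0.67 at 6 h was not called (limma adjusted p = 0.47).

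The spread within groups was described without a test. The pooled SD of a member within its groups had a median of 0.36, against 0.30 for the contig probes well above background on every array. It was above 1 in 14 members and above 2 in 4 members, the next being 1.66. Among the contig probes it reached 2.83, and those above 1 or 2 were not counted. The sets were not matched in brightness. By mean signal, the median SD was 0.44 over the 70 dimmest members and 0.30 over the 71 brightest. The 4 members with an SD above 2, which were chosen after their values were seen, were called in no comparison. A spread of this size by itself makes a call unlikely.

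Probe CUST_271_PI426483993, named for entry DQ860840, had a pooled SD of 2.96 and a 571-fold range over the 22 arrays. Its signal after E. tarda FKC was 6.51, 6.54, 1.77 and 6.46 at 12 h and 7.76, 6.35 and -1.40 at 6 h. After S. iniae FKC it was 6.40, 3.25, 4.28 and 6.52 at 12 h and 6.80, 6.94 and 7.41 at 6 h, and in PBS kidneys it was -0.20, 6.58, 6.61 and 7.52 at 12 h and 2.01, 7.69, 7.0 and 7.18 at 6 h. Most arrays lay together at a high level and single arrays, in treated and PBS groups alike, lay far below it. The F-test gave an adjusted p of 0.85 (limma).

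The other 3 members of this kind were probes CUST_398_PI426483993 (entry AY316303), CUST_381_PI426483993 (entry AY953372) and CUST_379_PI426483993 (entry AB375266), with pooled SDs of 2.72, 2.61 and 2.58. The AY316303 probe had signals of -2.38, 5.50, 0.55 and 4.70 after E. tarda FKC at 12 h, against 4.22, -0.94, 2.74 and -1.25 in PBS kidneys at 12 h. The AB375266 probe had signals of -1.75, 6.03, 1.58 and 5.10 after E. tarda FKC at 12 h, against 5.46, 0.88, 3.82 and 1.27 in PBS kidneys at 12 h. The AY953372 probe had signals of 0.37, 7.65, 2.84 and 6.83 after E. tarda FKC at 12 h, against 6.48, 1.84, 5.49 and 1.42 in PBS kidneys at 12 h.

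These 3 probes were high and low on the same arrays. In 5 of the 6 groups the same array was highest for all 3, in 4 the same array was lowest, and in 3 groups the whole order of arrays was the same. They differed from each other by a root mean square of 0.30 to 0.51 over the 22 arrays, each centred on its own mean. The DQ860840 probe did not share this order: in PBS kidneys at 12 h its lowest array, replicate 1, was the highest for the other 3.

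Likeness between members was measured as the root mean square difference of their values over the 22 arrays after each member was centred on its mean. Over all 22155 pairs of members its median was 0.85 and its lowest value 0.093. Members that vary little are close by this measure whatever they read. The sets of pairs below were not matched in how much their members vary. The 3 entries with 2 probes each had distances of 0.17, 0.23 and 0.44 between their probes. The 59 pairs whose entries carry consecutive numbers, formed by 92 members, had a median of 0.57 and ranged from 0.12 to 2.72. Among the 36 members whose SD over the arrays was above 1, 2 of 630 pairs lay under 0.3. One of these pairs was the AY533022 probe and a probe of another entry, at 0.12, and that probe had differences of 6.62 and 6.53 after E. tarda FKC at 12 h and 6 h and of 4.69 and 2.11 after S. iniae FKC. The AB073785 and FJ262992 probes, the 2 that fell most and whose SDs were not both above 1, were also each other's nearest member, at 0.20. Whether such pairs of probes read 1 transcript was not tested.

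The 2 probes of 1 entry did not always lead to the same call. For the entry with the distance of 0.44, the probe with 10 spots per array was called at 6 h in both comparisons with PBS, with -1.08 for E. tarda FKC (limma adjusted p = 0.0013) and -0.92 for S. iniae FKC (limma adjusted p = 0.040). The other probe of that entry had -0.23 and 0.02 in these comparisons and was not called (limma adjusted p = 0.40 and 0.98). With all spots kept, the SD over the 10 spots of the called probe had a median of 0.19 over the arrays and reached 0.81. The other members with 10 spots had medians of 0.062 and 0.053. For the entry with the distance of 0.17, both probes fell after E. tarda FKC at 12 h, with -0.56 each (limma adjusted p = 0.027 and 0.024). At 6 h 1 of these 2 probes fell, with -0.81 (limma adjusted p = 0.0063), and the other had -0.52 and was not called (limma adjusted p = 0.061).

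Calls occurred at all levels of brightness. With the members divided by mean signal over all arrays, 16 of the 70 dimmest members rose and 21 fell after E. tarda FKC at 12 h (22.9% and 30%), against 16.4% and 22% of the 4474 probes well above background on every array in that range of brightness. In the middle range 23 of 70 members rose and 18 fell (32.9% and 25.7%), against 21.1% and 19.6% of 1797 probes. In the brightest range 13 of 71 rose and 12 fell (18.3% and 16.9%), against 15.2% and 15% of 508 probes. The median size of the E. tarda difference at 12 h was 0.93 over the dimmest members, 0.91 over the middle and 0.38 over the brightest, against 0.46, 0.43 and 0.32 over all probes of these ranges.

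The 201 entry probes left out by the requirement of signal on every array included 46 that were well above background on no array and 46 on 1 or 2 arrays, and 109 of the 201 were bright enough on enough arrays to be tested. Just outside the requirement were 14 probes well above background on 21 arrays, whose lowest processed signal was 11.7 to 32.7, while the members' lowest processed signals began at 28.1. Among the 201, 11 were well above background on every E. tarda FKC array of 12 h and on no PBS array of 12 h (5.47%), and 2 the other way round (0.995%). Of all 7702 non-control probes that missed the requirement, 1.9% and 0.688% did so. At 6 h these numbers were 11 (5.47%) and 0, against 3.12% and 0.338% of the 7702. For S. iniae FKC the corresponding numbers were 6 (2.99%) and 0 at 12 h, against 0.532% and 0.286%, while at 6 h they were 4 (1.99%) and 0, against 2.48% and 0.0649%.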

How the data were processed

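Kidney RNA was measured on 22 one-colour Agilent arrays in 6 groups. The deposited scanner files hold spot intensity values that, per the file headers, were background-subtracted by Feature Extraction 10.7.3.1, whereas version 9.5.3.1 is given in the submitters' processing notes. A deposited table by the authors holds log2 values, 99.9965% of which lay within 0.1 of the scanner signal scaled to the 75th percentile and centred on the PBS median of the same time. That table was used as an alternative. Here, the processed signal was divided by the 75th percentile of its array (209 to 470 units), put on the log2 scale and averaged over spots of a probe. Control spots and spots marked as outliers were left out, which left 4 missing member values, and the affected arrays did not enter those probes' fits. Probes well above background on at least 3 arrays (11066) entered 1 limma 3.58.1 fit in R 4.3.3, with 6 group means and 16 residual degrees of freedom. p-values were adjusted by Benjamini-Hochberg over all tested probes within each contrast. Precision is limited by the number of arrays. The fit was tested on simulated data. Alternatives changed the background correction, normalization, scaling, probe filter, groups fitted, replicate block, spread estimate or outlier spots, took the authors' table, or left out each array in turn. Named members are the 2 largest rises and 2 largest falls against PBS, called without overlap, and the 2 steadiest. The members and lists were chosen with earlier results of these data known. Gene lists and cell type markers could not be used, since no table paired the entry names with genes.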

Additional observations from a re-analysis of the deposited data

Results flagged for a closer look

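In groups of 4 arrays, single arrays stood apart from the other 3 in 61 of 844 tests over the members (7.23%). For normally distributed values chance gives about 1 in 20. The members share their arrays, so these tests are not independent of each other. The share over all probes was not counted, so 7.23% has no background. PBS 12 h replicate 2 stood apart in 16 members and PBS 6 h replicate 2 in 8. Among the members described by name, the EF530037 probe was low at 3.98 on E. tarda FKC 12 h replicate 2. The DQ860840 probe was low at 1.77 on E. tarda FKC 12 h replicate 3, at -0.20 on PBS 12 h replicate 1 and at 2.01 on PBS 6 h replicate 1. The AB375266 probe was high at 6.31 on S. iniae FKC 12 h replicate 4.

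The difference between E. tarda FKC and S. iniae FKC changed between 6 h and 12 h in 13 members by the interaction contrast of limma. These were 6.16% of the members, against 4.44% of all probes well above background on every array and 3.79% of all tested probes. For the AY533022 probe that change was -2.37 (limma adjusted p = 0.044). That call was lost with scaling to the median (limma adjusted p = 0.057) and when most single arrays were left out.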

How the results depend on the processing

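Under the alternatives, the count of called members stayed within 1.5 times the value in the report for E. tarda FKC and S. iniae FKC against PBS at 12 h, E. tarda FKC against PBS at 6 h, E. tarda FKC against S. iniae FKC at 12 h and the F-test. Leaving out 1 array gave 81 to 105, 27 to 46, 46 to 74, 53 to 63 and 117 to 133. Shares over all probes are given for the main fit only, so no count under an alternative, with the replicate block included, has a background. S. iniae FKC against PBS at 6 h gave 27 with normexp and quantile normalization, 14 with quantile normalization, 2 with the compared groups alone and 3 to 13 with 1 array left out. E. tarda FKC against S. iniae FKC at 6 h gave 16 with the compared groups alone and 16 to 37 with 1 array left out. PBS at 12 h against 6 h gave 0 to 1, the 1 without PBS 12 h replicate 2. The change with time gave 22 with probes on all arrays only, 7 with the compared groups alone and 4 to 15 with 1 array left out: 4, 7 and 7 without S. iniae FKC 6 h replicate 2, S. iniae FKC 6 h replicate 3 and E. tarda FKC 6 h replicate 2, 7 and 8 without S. iniae FKC 12 h replicates 4 and 2, and 8 without E. tarda FKC 12 h replicate 4. With scaling to the median or with no filter it was 6 upward and 4 downward, and with the compared groups alone 4 and 3. Apart from fewer samples or probes where the alternative itself removes them, the cause was not tested. The members' median difference from PBS after S. iniae FKC was 0.092 at 12 h with scaling to the median, against -0.042, and at 6 h 0.027 with quantile normalization and -0.014 with normexp correction added, against -0.081. The median change with time was -0.15 without E. tarda FKC 6 h replicate 2 and -0.14 without S. iniae FKC 12 h replicate 1, against -0.039.

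With the replicate number as a block, the calls against PBS were 96 and 66 after E. tarda FKC at 12 h and 6 h, 40 and 8 for S. iniae FKC, 56 and 29 between the preparations, 0 for PBS over time, 14 for the change with time and 128 for the F-test. In no comparison did every same-numbered pair of arrays correlate above 0.1. With so few pairs in a comparison, whether the numbers pair the samples cannot be decided from these values. A slide block could not be fitted, since each treatment at each time lay on 1 slide.

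Differences of the named members that were not called changed sign as follows. After normexp and quantile normalization, and after quantile normalization alone, the AB240549 probe had 0.81 and 0.51 in E. tarda FKC minus PBS at 6 h (limma adjusted p = 0.00038 and 0.032), 0.22 and 0.21 at 12 h, 0.53 and 0.22 for S. iniae FKC against PBS at 6 h (limma adjusted p = 0.040 and 0.61), 0.11 and 0.070 at 12 h, and 0.11 and 0.064 for PBS over time, and the AB073785 probe had 0.38 and 0.091 for the change with time. After normexp and quantile normalization the EF530037 probe had -0.16 for S. iniae FKC against PBS at 6 h and the DQ825345 probe -0.013 in E. tarda FKC minus PBS at 12 h. With scaling to the median, the AB240549 probe had 0.078 for PBS over time and 0.012 for the change with time, and the DQ825345 probe -0.017 in E. tarda FKC minus PBS at 6 h and 0.034 for PBS over time. With the replicate block the AB240549 probe had 0.012 in E. tarda FKC minus PBS at 6 h. With 1 array left out, the AB240549 probe ranged from -0.032 to 0.020 and from -0.20 to 0.00022 in E. tarda FKC minus PBS at 6 h and 12 h, from -0.081 to 0.069 for PBS over time and from -0.10 to 0.090 for the change with time. The DQ825345 probe ranged from -0.20 to 0.31 in E. tarda FKC minus PBS at 6 h, from -0.37 to 0.14 for E. tarda FKC against S. iniae FKC at 6 h, from -0.15 to 0.0043 for PBS over time and from -0.26 to 0.25 for the change with time. The EF530037 probe ranged from -0.037 to 0.49 for S. iniae FKC against PBS at 6 h and from -0.44 to 0.090 for PBS over time, and the AB073785 probe from -0.27 to 0.14 for the change with time.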
